A study of Arabidopsis thaliana with 12 samples.

Results

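The nuclear genes described here encode the proteins of the 2 photosystems, their light-harvesting antennae, the electron carriers between them, Rubisco with its helper proteins, and the early light-induced proteins. They are a list of 48 named probe sets of the ATH1 array, each labelled by the locus it detects (AT3G27690_at for LHCB2.3, AT2G40100_at for LHCB4.3, AT3G22840_at for ELIP1, AT4G14690_at for ELIP2). Of these, 41 had values among the 21428 loci of the table. They were 5 of 6 listed genes of the photosystem I antenna, 7 of 12 of the photosystem II antenna, 12 of 12 photosystem I subunits, 10 of 10 photosystem II subunits, 3 of 3 electron carriers, 2 of 3 Rubisco genes, and both early light-induced genes. The remaining 7 (LHCA2, LHCB1.1, LHCB1.4, LHCB1.5, LHCB2.1, LHCB2.2 and RBCS1A) are not analysed here, so the most abundant antenna proteins and the Rubisco small subunit are not covered.

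Levels of mRNA were measured in leaf 3 of Arabidopsis seedlings (Col-0, 9 days old) that carry 35S::gai-GR. The DELLA protein gai represses growth and withstands the breakdown that gibberellin normally sets off. Its fusion to the glucocorticoid receptor domain is held outside the nucleus until dexamethasone (DEX) is given, and the 35S promoter drives it throughout the plant. The 4 groups were mock (DMSO) for 1 h, 5 µM DEX for 1 h, mock for 4 h and 5 µM DEX for 4 h, all of this 1 genotype. Each had 3 arrays from independent experiments, each with leaves from multiple plates. Plants without the transgene on DEX are not analysed here, so effects of DEX and of gai-GR cannot be told apart. Growth was under 16 h of light and 8 h of darkness, and the labels do not give the clock time of harvest. Time on the plates and time of day therefore cannot be told apart.

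In the thylakoid membrane, light absorbed by the antenna proteins (LHCA around photosystem I, LHCB around photosystem II) passes to the photosystem cores. Photosystem II splits water, electrons travel through the cytochrome b6f complex and plastocyanin to photosystem I, and the products drive carbon fixation by Rubisco. The nuclear genes of this apparatus are among the most strongly transcribed in a leaf, respond to light and to the circadian clock, and are activated by the transcription factors GLK1, GLK2 and HY5. ELIP1 and ELIP2 are relatives of the antenna proteins that appear under strong light and are thought to protect the membrane.

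The values are log2 probe set signals, and a signal near the top of the scale limits what can be seen. They ran from 4.43 to 14.14 over all arrays and loci, and the highest value of a measured photosynthesis gene was 13.87. In 22 of the 41 genes the mean over the 12 arrays was 13 or more, a level that 228 loci reached in all. LHCB5 and PSAK were the brightest, both with a mean of 13.76. RBCX1 (mean 6.83), LHCB4.3 (8.36) and ELIP1 (9.13) were the dimmest. Signals of different probe sets are not a measure of which mRNA is more abundant. Array medians over all loci lay between 7.48 and 7.78. Mock 4 h replicate 2 had the lowest, and it gave the lowest value of its group for 29 of the 41 genes and for 59.7% of all loci. Calls that rest on the mock 4 h group are therefore also given without it. Those of tissue markers, and of transcription factors between the times, are not. Among markers of other tissue, the summed linear signal of 5 root markers was 357 to 446 in mock and 353 to 382 in DEX at 4 h. That of 5 leaf polarity markers was 7410 to 10400 and 6580 to 7810, and that of 5 shoot meristem markers 386 to 433 and 263 to 312. The values hold no 0, so absence cannot be read from them. The 5 leaf polarity markers had means of 12.01 (YAB1), 11.35 (AS1), 10.96 (YAB3), 7.31 (KAN1) and 7.21 (KAN2). The 5 root markers had means of 5.19 to 6.94. In bulk leaf tissue, fewer cells of a type and less RNA per cell cannot be told apart.

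**Figure D1:**
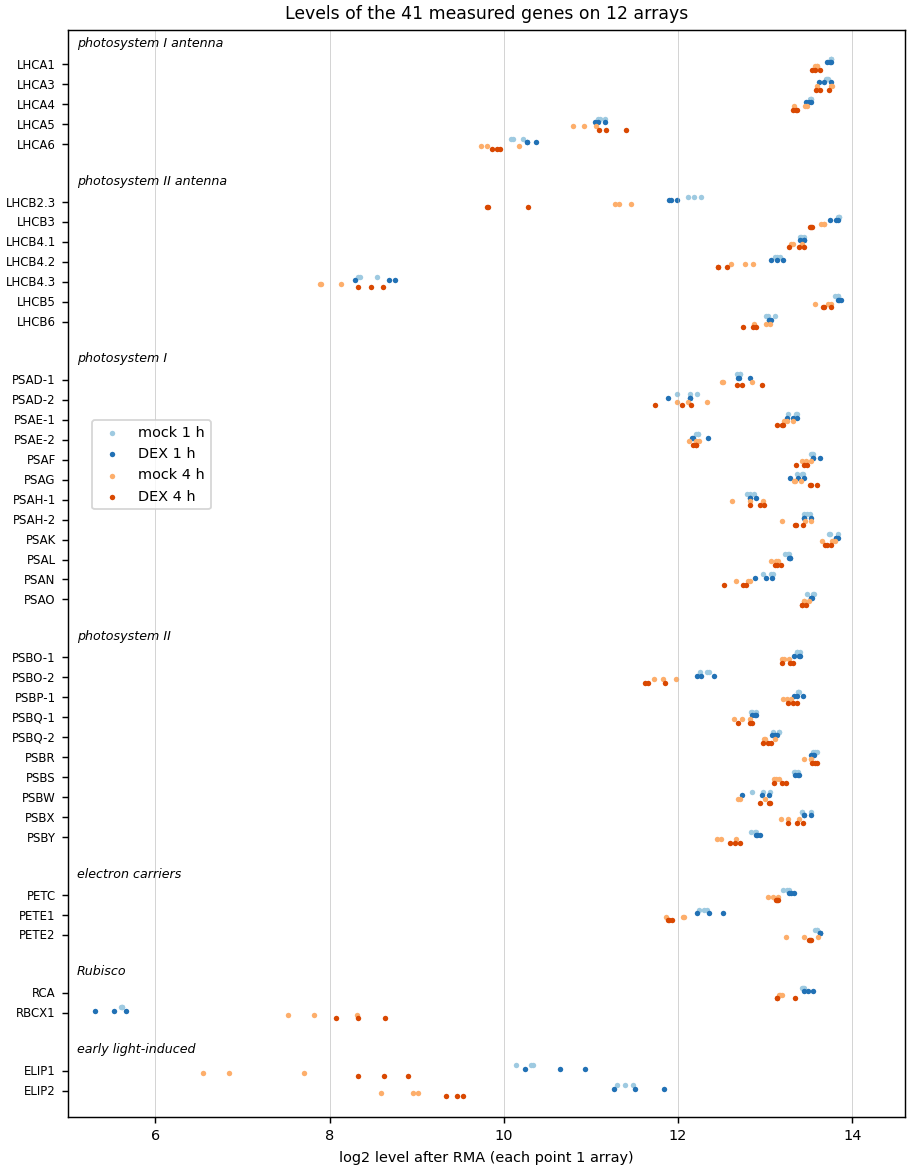
Log2 level of each of the 41 measured genes (rows, by complex) on each of 12 arrays (points, coloured by group). Most points of the photosystem and antenna genes crowd between 12 and 14, while LHCB2.3, LHCB4.3, RBCX1, ELIP1 and ELIP2 spread to lower levels. Arrays of 4 h lie apart from arrays of 1 h for these genes except LHCB4.3, whose DEX arrays overlap between the times.

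After 1 h on DEX, 0 of the 41 genes passed the test in limma, at an adjusted p under 0.05 over all loci, and 0 had an unadjusted p under 0.05. In the same comparison 0.63% of all loci passed as higher and 0.084% as lower, and 1068 of the 21428 had an unadjusted p under 0.05. The log2 differences of the 41 genes from mock ran from -0.25 for LHCB2.3 to 0.34 for ELIP1, with a median of 0.00. The 95% intervals of all 41 lay between -0.50 (LHCB2.3) and 0.87 (ELIP1), and the median standard error was 0.08. None of the 12 photosystem I subunits differed by more than the range from -0.06 to 0.05, and none of the 10 photosystem II subunits by more than -0.05 to 0.05.

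After 4 h on DEX, 4 of the 41 genes had changed, and 37 did not pass the test. LHCB2.3, a protein of the trimeric photosystem II antenna, fell 2.61-fold. ELIP1, ELIP2 and LHCB4.3 (a form of the monomeric antenna protein CP29) rose 2.98-fold, 1.5-fold and 1.42-fold. Over all loci 5.35% passed as higher and 2.55% as lower, so 3 higher and 1 lower of 41 is near the background. The median difference of the 41 genes was 0.02 on the log2 scale, the same as that of all loci, with 24 genes higher and 17 lower. With each array centred on its median, both medians became -0.09 and 32 of the 41 genes were lower. The 3 mock and 3 DEX values did not overlap for 6 genes that were higher (13% of all loci) and 4 that were lower (7.34% of all loci).

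**Figure D2:**
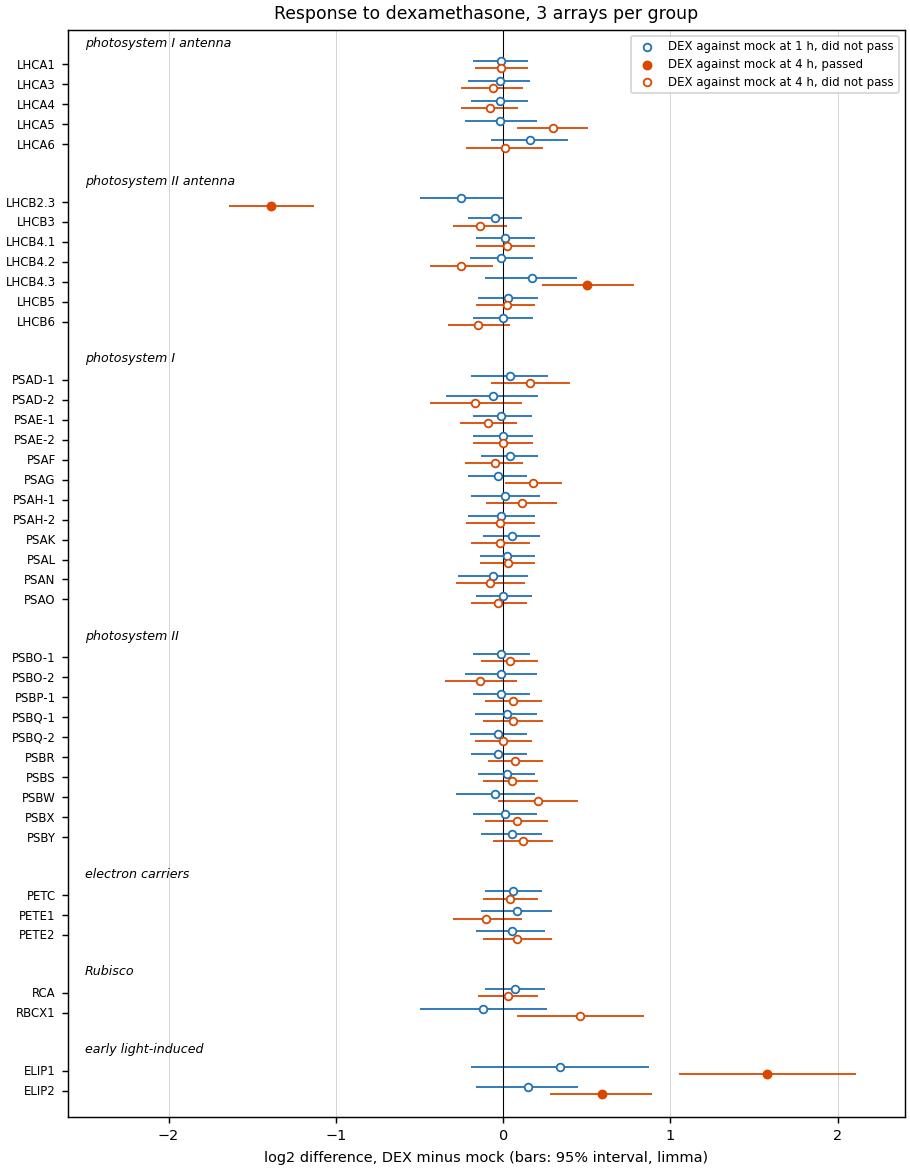
Difference between DEX and mock in log2 units (x axis) for each gene (rows, by complex) at 1 h (blue) and 4 h (orange), with 95% intervals from limma. Filled points passed an adjusted p of 0.05. LHCB2.3 at -1.39 and ELIP1 at 1.58 stand outside the column of genes close to 0.

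In the photosystem II antenna, LHCB2 proteins form part of the mobile LHCII trimers that are phosphorylated when the balance between the photosystems shifts. LHCB2.3 (AT3G27690) had log2 levels of 12.26, 12.11 and 12.18 in mock and 11.92, 11.89 and 11.99 in DEX at 1 h. At 4 h they were 11.28, 11.46 and 11.32 in mock and 9.81, 9.82 and 10.28 in DEX. At 1 h, 2 of the 41 genes were lower and 5 higher without overlap, against 1438 and 1368 of the 21428 loci. LHCB2.3 was among those 2. Its DEX arrays were below its mock arrays at both times without overlap, by a small margin at 1 h and a wide one at 4 h. Its log2 difference was -0.25 (SE 0.12, limma adjusted p = 1) at 1 h and -1.39 (SE 0.12, adjusted p = 2.8e-06) at 4 h, and 6 of the 21428 loci fell further at 4 h. The response at 4 h differed from that at 1 h by -1.13 (SE 0.17, adjusted p = 0.00318). LHCB2.3 was the only 1 of the 41 genes that passed this test, where 0.313% of all loci passed as lower and 0.966% as higher. Without mock 4 h replicate 2 the 4 h difference was -1.33 (adjusted p = 8.81e-06) and the difference between the responses -1.08. Whether its probes also read mRNA of LHCB2.1 and LHCB2.2, its near-identical copies, was not tested.

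CP29, which links the core of photosystem II to its trimers, is encoded by 3 genes, all measured. LHCB4.3 (AT2G40100), a dim probe set, had log2 levels of 8.13, 7.90 and 7.89 in mock and 8.33, 8.48 and 8.61 in DEX at 4 h. Every DEX array was above every mock array, with a log2 difference of 0.50 (SE 0.13, limma adjusted p = 0.0255). The call rests on single arrays: without mock 4 h replicate 2 the difference was 0.46 with an adjusted p of 0.0544, and without DEX 4 h replicate 3 the adjusted p was 0.0984. It also did not hold without mock 4 h replicate 3 or without DEX 4 h replicate 2, nor under renewed quantile normalization, centring of each array or a fit of the 4 h arrays alone. At 1 h its values overlapped, with 8.33, 8.35 and 8.54 in mock and 8.68, 8.29 and 8.75 in DEX (difference 0.17).

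LHCB4.2 (AT3G08940) had log2 levels of 12.77, 12.61 and 12.86 in mock and 12.56, 12.46 and 12.46 in DEX at 4 h. The groups did not overlap, with DEX lower, yet the log2 difference of -0.25 (SE 0.09) did not pass (limma adjusted p = 0.108). It passed without mock 4 h replicate 2 (-0.32, adjusted p = 0.0322) and with centred arrays (-0.36, adjusted p = 0.0117). LHCB4.1 (AT5G01530) had 13.32, 13.30 and 13.42 in mock and 13.39, 13.27 and 13.44 in DEX, values that overlapped (difference 0.02). Its mean over all arrays was 13.39, a brightness that limits what its signal can show. Within each array, LHCB4.3 stood closer to LHCB4.1 in DEX (from -5.06 to -4.79) than in mock (from -5.53 to -5.19), and LHCB4.2 further below it (from -0.98 to -0.81 against -0.69 to -0.55). The means of these differences changed by 0.48 and -0.27. An exact two-sided permutation test of 3 arrays against 3 gave p = 0.1 for both, the smallest that its 20 splits allow, and 0.225 after adjustment over the 9 pairs.

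Of the other photosystem II antenna genes, LHCB3, a further trimer subunit, was at 13.64, 13.67 and 13.67 in mock and 13.52, 13.51 and 13.54 in DEX at 4 h. These values did not overlap, with DEX lower by a log2 difference of -0.14 that did not pass (SE 0.08, limma adjusted p = 0.323). LHCB5 (CP26) and LHCB6 (CP24), the other monomeric antenna proteins, did not pass either. The 5 measured genes of the photosystem I antenna had differences between -0.08 and 0.30 at 4 h and 0 passed. LHCA5, a minor antenna protein that links photosystem I to the NDH complex, had the smallest adjusted p of the 37 genes that did not pass (0.0965). Its levels were 11.06, 10.79 and 10.92 in mock and 11.09, 11.17 and 11.40 in DEX, a difference of 0.30 (SE 0.10) with DEX above mock on every array by a narrow margin.

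**Figure D3:**
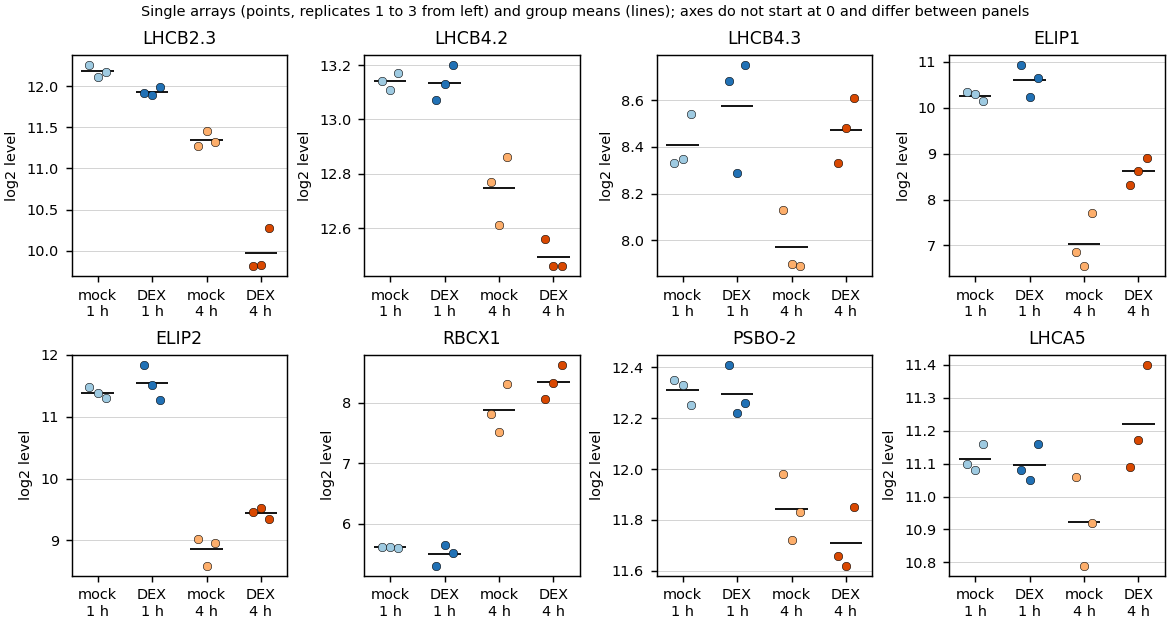
Log2 levels of 8 genes on single arrays (points, replicates 1 to 3 from left) and group means (lines), for mock and DEX at 1 h and 4 h; the y axes do not start at 0 and differ between panels. LHCB2.3 is lowest in DEX at 4 h (9.81 to 10.28), ELIP1 and ELIP2 are lowest in mock at 4 h, and RBCX1 is above 7 only at 4 h.

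Among the 12 photosystem I subunits, 0 passed at 4 h, and their differences between DEX and mock ran from -0.17 (PSAD-2) to 0.18 (PSAG). PSAG, a small membrane subunit that helps to hold the antenna, was at 13.34, 13.33 and 13.41 in mock and 13.51, 13.52 and 13.60 in DEX. These did not overlap, but the difference of 0.18 (SE 0.08) did not pass (limma adjusted p = 0.221). With a variance trend and robust fitting it passed (adjusted p = 0.0416). PSAE-1, which docks ferredoxin on the stromal side, was at 13.22, 13.25 and 13.32 in mock and 13.20, 13.19 and 13.13 in DEX, apart by a margin of 0.02 between the nearest arrays as printed. The other stromal subunit, PSAD, is encoded by PSAD-1 and PSAD-2. PSAD-2 was further below PSAD-1 in every DEX array (from -0.94 to -0.57) than in any mock array (from -0.52 to -0.41), a change of -0.33 in the mean. Its exact permutation p was also the smallest possible, 0.1 (adjusted 0.225). The pairs PSAE-1 and PSAE-2 and PSAH-1 and PSAH-2 overlapped between mock and DEX, with exact p values of 0.2 and 0.6.

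Of the 10 photosystem II subunits, 0 passed at 4 h and the differences lay between -0.14 (PSBO-2) and 0.21 (PSBW). PSBW, a small membrane subunit, had the smallest p among them. It was at 12.71, 12.69 and 13 in mock and 12.94, 13.06 and 13.04 in DEX, and the groups overlapped (difference 0.21, SE 0.11, limma adjusted p = 0.310). PSBR, a lumenal subunit near the water-splitting site, was the only 1 of the 10 without overlap, at 13.52, 13.44 and 13.53 in mock and 13.54, 13.59 and 13.57 in DEX (difference 0.07). PSBO, PSBP and PSBQ shield the water-splitting cluster, and all 5 of their measured genes had differences between -0.14 and 0.06. PSBO-2 against PSBO-1 and PSBQ-2 against PSBQ-1 overlapped between mock and DEX (exact p values of 0.2 and 0.5). PSBS, which triggers the dissipation of excess light as heat, differed by 0.05 (95% interval from -0.12 to 0.21).

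The electron carriers did not pass at 4 h. PETE1, 1 of the 2 plastocyanin genes, was at 12.07, 11.86 and 12.06 in mock and 11.88, 11.93 and 11.89 in DEX, which overlapped (difference -0.10, SE 0.10, limma adjusted p = 0.644). PETE2 differed by 0.08 and PETC, the Rieske protein of the cytochrome b6f complex, by 0.04. Of the Rubisco helpers, RCA, the activase that frees blocked active sites, differed by 0.03. RBCX1, a chaperone of Rubisco assembly, was at 7.82, 7.52 and 8.31 in mock and 8.07, 8.32 and 8.63 in DEX. Its difference of 0.46 (SE 0.18, adjusted p = 0.148) did not pass, and the groups overlapped. It was 0.67 and passed (adjusted p = 0.0162) without mock 4 h replicate 3.

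Both early light-induced genes rose. ELIP1 (AT3G22840) had log2 levels of 6.85, 6.55 and 7.70 in mock and 8.32, 8.62 and 8.90 in DEX at 4 h. No DEX array overlapped with mock, although mock replicate 3 lay well above the other mock arrays. The log2 difference was 1.58 (SE 0.25, limma adjusted p = 7.38e-04). It was 1.33 (adjusted p = 0.002) without mock 4 h replicate 2. ELIP2 (AT4G14690) was at 9.02, 8.59 and 8.96 in mock and 9.46, 9.53 and 9.34 in DEX, a difference of 0.59 (SE 0.14, adjusted p = 0.0176). Without mock 4 h replicate 2 it was 0.46 with an adjusted p of 0.0497, and without DEX 4 h replicate 2 the adjusted p was 0.0767. It also did not pass without DEX 4 h replicate 1.

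At 1 h the ELIP arrays overlapped. ELIP1 was at 10.34, 10.31 and 10.14 in mock and 10.93, 10.24 and 10.65 in DEX, and ELIP2 at 11.48, 11.39 and 11.30 in mock and 11.84, 11.51 and 11.27 in DEX. The response of ELIP1 at 4 h was larger than at 1 h by 1.23, which did not pass (limma adjusted p = 0.121) except without mock 4 h replicate 3 (1.57, adjusted p = 0.00995). For ELIP2 the corresponding value was 0.44. Within each array ELIP2 stood from 1.26 to 2.17 above ELIP1 in mock and from 0.45 to 1.15 in DEX at 4 h. The mean of this difference changed by -0.99 with the smallest exact p possible, 0.1 (adjusted 0.225).

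The comparison between the times asks how the same genes stood in plants kept for 1 h or 4 h. In mock plants 39 of the 41 genes (95.1%) were lower at 4 h, against 58.3% of all loci. The median difference was -0.14, against -0.04 over all loci. Of the 41 genes, 7 passed as lower (5.64% of all loci) and 1 as higher (3.64%). The 3 values at 4 h lay below all 3 at 1 h for 23 genes (19.1% of all loci), and above them for 1 gene (9.78%). Other bright loci were lower more often than all loci. At a mean of 12 to 13, which 12 of the 41 genes had, 70% of the other loci were lower and 36.1% without overlap. At 13 or more (22 genes) it was 69.4% and 34%. Without mock 4 h replicate 2, 36 of the 41 were lower with a median of -0.11 against -0.01 for all loci, and 6 passed as lower (2439 of all loci passed in either direction). With renewed quantile normalization 33 were lower, and the medians were -0.08 and 0.00.

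In DEX plants, a comparison that shares no array with the one in mock, 34 of the 41 genes were lower at 4 h, with a median of -0.12 against -0.02 for all loci. Here 11 passed as lower (8.98% of all loci) and 1 as higher (10.4%), and the arrays did not overlap for 28 genes that were lower (20.5%) and 2 that were higher (19%). Of the other bright loci, 35.4% with a mean of 12 to 13 and 32% with 13 or more were lower without overlap. In both comparisons 33 of the 41 genes (80.5%) were lower, against 40.9% of all loci. That share was not computed for equally bright loci. The comparison of DEX with mock at 4 h shares its arrays with both of these.

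ELIP1 and ELIP2 stood out in the time comparison as well. In mock plants ELIP1 fell from a mean of 10.26 ± 0.11 at 1 h to 7.03 ± 0.60 at 4 h (SD, n = 3). The log2 difference of -3.23 (SE 0.25, 9.38-fold lower, limma adjusted p = 2.77e-06) was the most negative of all 21428 loci. ELIP2 fell from 11.39 ± 0.09 to 8.86 ± 0.23, a difference of -2.53 (5.79-fold lower, adjusted p = 1.38e-07), with 3 loci more negative. On DEX the differences were -2 and -2.09. Every 4 h array was below every 1 h array for both genes. The higher ELIP levels in DEX at 4 h thus lay between the mock level at 4 h and the levels at 1 h. Without mock 4 h replicate 2 the mock differences were -2.99 and -2.40.

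RBCX1 went the other way. It was at 5.62, 5.62 and 5.60 in mock and 5.31, 5.66 and 5.52 in DEX at 1 h, below the lower quartile of all loci on each array, which was 5.87 to 5.94. At 4 h all 6 arrays read between 7.52 and 8.63. The log2 difference between the times was 2.27 in mock (SE 0.18, 4.82-fold, limma adjusted p = 3.53e-06), the fifth highest of all loci, and 2.45 without mock 4 h replicate 2. On DEX it was 2.84 (SE 0.18, 7.18-fold, adjusted p = 1.73e-07). Since the 1 h signals lie near the lower end of the scale, these folds may understate the difference.

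**Figure D4:**
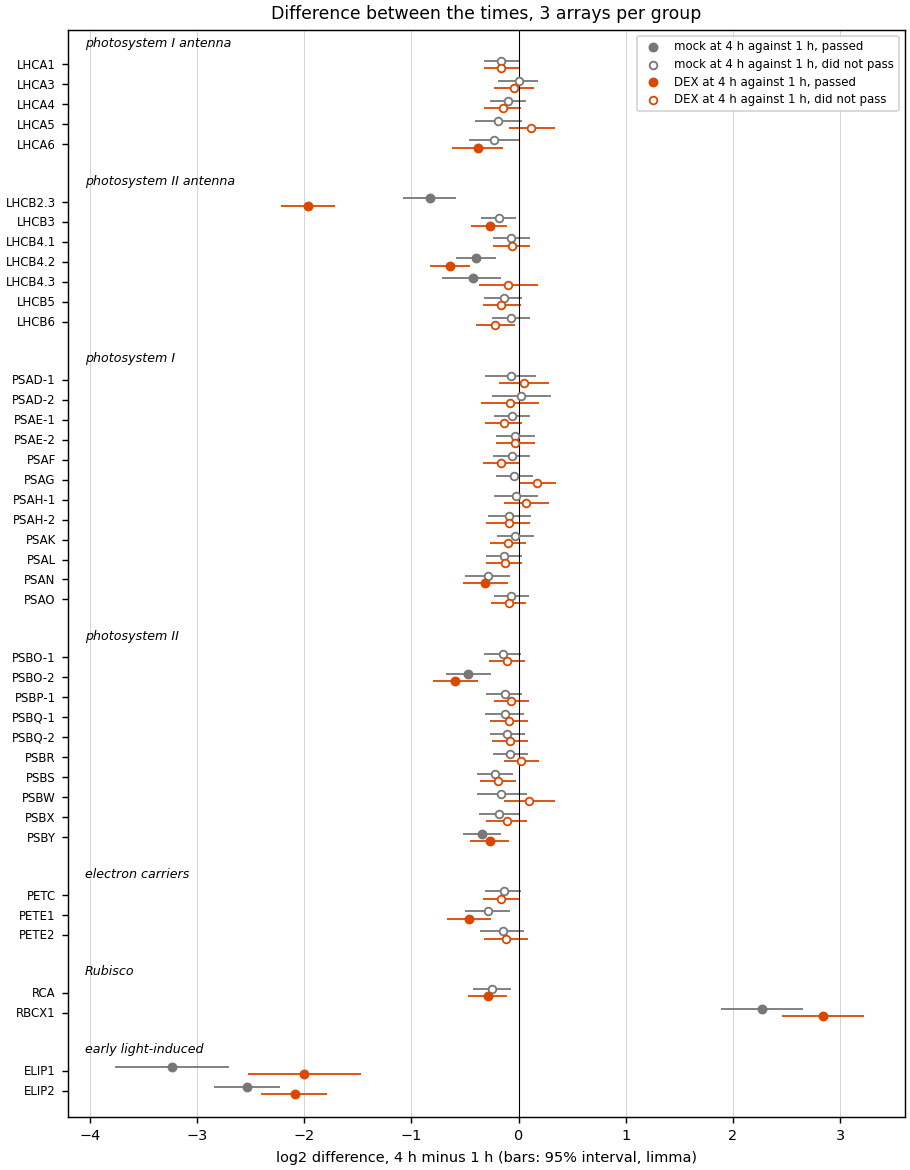
Difference between 4 h and 1 h in log2 units (x axis) for each gene (rows, by complex), in mock (grey) and DEX (orange), with 95% intervals from limma. Filled points passed an adjusted p of 0.05. Most genes lie slightly below 0, ELIP1 and ELIP2 lie between -3.23 and -2, and RBCX1 at 2.27 and 2.84 is the only gene that passed as higher.

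Of the 7 measured photosystem II antenna genes, 3 passed as lower at 4 h in mock (5.64% of all loci) and 3 on DEX (8.98%). Of the 5 of photosystem I, 0 and 1 passed as lower, numbers too small to compare the 2 antennae. LHCB2.3 differed between the times by -0.83 in mock (1.78-fold lower, limma adjusted p = 6.53e-04) and by -1.96 on DEX (3.90-fold lower, adjusted p = 1.16e-07). LHCB4.2, at 13.14, 13.11 and 13.17 in mock at 1 h, was lower at 4 h by -0.40 in mock (adjusted p = 0.0131) and by -0.64 on DEX (adjusted p = 2.15e-04). Neither gene's arrays overlapped between the times, and without mock 4 h replicate 2 the mock differences were -0.88 and -0.33 (adjusted p = 0.0249 for LHCB4.2). The mock call of LHCB4.2 ended without mock 1 h replicate 3 (adjusted p = 0.0607). LHCB4.3 was lower in mock by -0.43 with an adjusted p of 0.0494, a call lost in 14 of 20 alternatives (-0.40, adjusted p = 0.0861 without mock 4 h replicate 2), and on DEX by -0.10, which did not pass. LHCB4.1, whose mean of 13.39 limits what its signal can show, differed by -0.07 and -0.06 and did not pass. LHCB3 (-0.27) and LHCA6 (-0.38) passed as lower on DEX. Both calls ended when single arrays were left out, with an adjusted p up to 0.0753 and 0.0884, each without DEX 1 h replicate 1.

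Of the photosystem cores, PSBO-2, the second gene of the water-splitting cluster's main shield, was at 12.35, 12.33 and 12.25 in mock and 12.41, 12.22 and 12.26 in DEX at 1 h. At 4 h it was at 11.98, 11.72 and 11.83 in mock and 11.66, 11.62 and 11.85 in DEX. All 4 h arrays were below all 1 h arrays, with differences of -0.47 in mock (SE 0.10, limma adjusted p = 0.00965) and -0.59 on DEX (adjusted p = 9e-04). The mock difference was -0.41 (adjusted p = 0.0196) without mock 4 h replicate 2. PSBO-1, whose mean of 13.31 limits what its signal can show, differed by -0.15 and -0.11 and did not pass. PSBY, a small photosystem II subunit, passed as lower in mock (-0.34, adjusted p = 0.0231, and -0.30, adjusted p = 0.0412, without mock 4 h replicate 2) and on DEX (-0.27, adjusted p = 0.0387). Leaving out single arrays ended those calls with an adjusted p up to 0.0882 in mock and 0.110 on DEX. PETE1 was lower by -0.46 on DEX (adjusted p = 0.0041). PSAN, a lumenal photosystem I subunit near the plastocyanin site, and RCA were lower there by -0.31 and -0.29. Those last 2 calls ended without single arrays too, with an adjusted p up to 0.15 for PSAN and 0.103 for RCA.

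How far the brightest probe sets could show a change was read from the rest of the array. Of the 206 other loci with a mean of 13 or more, 0 passed for DEX against mock at 4 h, and the largest difference among them was 0.33 in either direction. From 12 to 13 it was 6.63% of the other loci, from 10 to 12 it was 9.73%, and from 8 to 10 it was 11.6%. In the same classes, 0 of 22, 0 of 12, 2 of 4 and 2 of 2 of the measured photosynthesis genes passed. At 13 or more the median spread between arrays of a group was small, with a residual SD of 0.048 for the 22 genes and 0.052 for the other loci. Between the times, 12 of those 22 genes had all mock 4 h arrays below the 1 h arrays, against 34% of the other loci of that brightness, and on DEX 17 of 22, against 32%. Their median difference was -0.12 in both comparisons. Calls did occur at this brightness between the times. In mock 2.43% of the other loci and 0 of the 22 genes passed, and on DEX 6.8% and 2 of 22. An mRNA change in the 22 brightest genes may be larger than its log2 signal shows, and how much larger was not tested. The standard error of a difference had a median of 0.08 for the 41 genes and 0.12 for all loci.

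**Figure D5:**
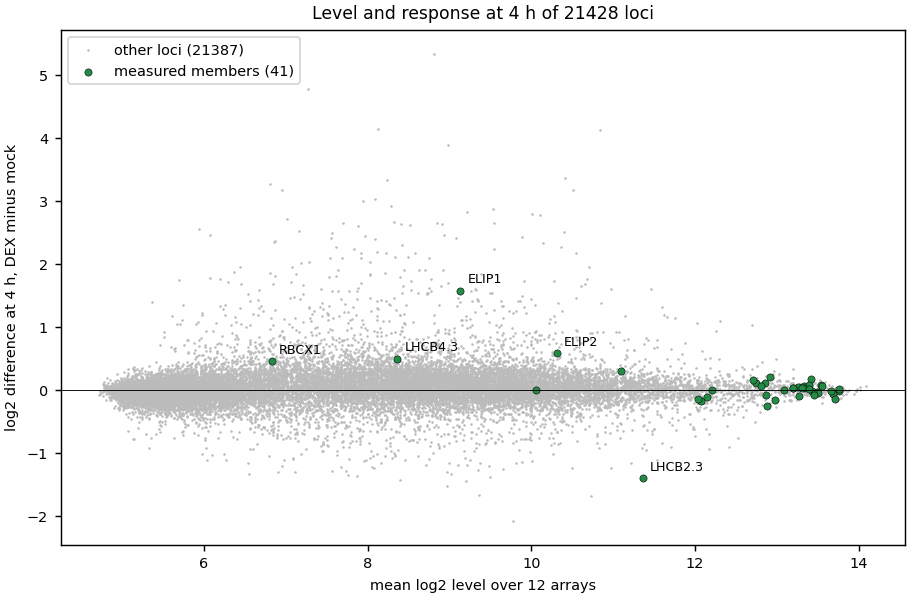
Log2 difference between DEX and mock at 4 h (y axis) against the mean log2 level over 12 arrays (x axis), for the 41 measured genes (green) and all other loci (grey). The spread of differences narrows above a level of 12, and above 13 no locus passed; the labelled genes that differ most lie below 12.

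Further genes of photosynthesis gave a similar count on DEX. Of 14 measured Calvin cycle genes 0 passed at 4 h in limma, with a median difference of 0.06. An unadjusted p under 0.05 was found for 2 of the 14, and for 4479 of all 21428 loci. Of 21 further thylakoid proteins 3 rose (5.35% of all loci), with a median of 0.10 against 0.02 for all loci. They were TAP38, a phosphatase that removes phosphate from LHCII (0.46, adjusted p = 0.0123), STN7, the kinase that adds it (0.42, adjusted p = 0.0440), and OHP2, a one-helix protein of photosystem assembly (0.40, adjusted p = 0.0214). Without mock 4 h replicate 2, STN7 was at 0.27 (adjusted p = 0.0923) and OHP2 at 0.34 (adjusted p = 0.0522), and neither passed. The STN7 call was lost in 13 of 20 alternatives, 10 of them without a single array. TAP38 was at 0.36 (adjusted p = 0.0304) without mock 4 h replicate 2, and its call ended without DEX 4 h replicate 1. Of 17 chlorophyll synthesis genes 2 fell (2.55% of all loci), with a median of -0.04. CAO, the oxygenase that makes chlorophyll b, fell by 0.39 (adjusted p = 0.0335) and PORB, a light-dependent reductase, by 0.32 (adjusted p = 0.0429). Each of the 2 calls ended when any of several single arrays was left out (7 arrays for CAO, 9 for PORB), and without mock 4 h replicate 2 CAO was at -0.47 (adjusted p = 0.0089) and PORB at -0.30 (adjusted p = 0.077). At 1 h 0 genes of these 3 lists passed, with 0, 0 and 2 at an unadjusted p under 0.05. Of all loci, 0.63% passed as higher and 0.084% as lower at 1 h, and 1068 of 21428 had an unadjusted p under 0.05.

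Among 7 regulators of photosynthesis genes, 2 rose (5.35% of all loci) and 1 fell (2.55%) at 4 h. At 1 h 0 passed, where 0.63% of all loci passed as higher and 0.084% as lower. GLK2 had log2 levels of 9.41, 9.31 and 9.58 in mock and 8.71, 8.51 and 8.75 in DEX at 4 h, without overlap. It fell by 0.78 (SE 0.10, limma adjusted p = 1.48e-04), while GLK1, its close relative, overlapped at 8.26, 7.38 and 8.57 in mock and 8.15, 8.10 and 8.60 in DEX (difference 0.22, adjusted p = 0.664). HY5, a bZIP factor of light signalling, was at 6.96, 6.80 and 6.97 in mock and 7.79, 7.74 and 8.09 in DEX, and rose by 0.96 (SE 0.12, adjusted p = 8.42e-05). HYH, its homologue, was at 7.14, 6.69 and 7.03 in mock and 7.74, 7.83 and 8.12 in DEX, and rose by 0.94 (SE 0.13, adjusted p = 2.53e-04). These 3 calls held without mock 4 h replicate 2, at -0.84, 0.91 and 0.81. The response of HY5 and HYH differed between 4 h and 1 h by 1.1 each (adjusted p = 0.00351 and 0.00749).

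Like ELIP1 and ELIP2, HY5 and HYH were lower in mock at 4 h than at 1 h (differences of -0.90 and -1.86), with DEX at 4 h above mock at 4 h. On DEX, HYH had means of 8.66 at 1 h and 7.90 at 4 h. Unlike the ELIP genes, HY5 was not lower at 4 h on DEX, with means of 7.67 and 7.88 (7.81 in mock at 1 h). GLK2, like LHCB2.3, was lower at 4 h in mock (-0.75) and lower still on DEX (-1.41). In mock all 7 regulators were lower at 4 h. Of these 4 passed as lower (5.64% of all loci), among them PIF1 (-0.51), while GLK1 (-0.73) did not pass. The comparisons share the mock 4 h arrays, so these values are set side by side only, and no link between the genes was tested. Among the markers of other tissue, the leaf polarity gene AS1 fell by 0.91 at 4 h (limma adjusted p = 4.69e-04), and the meristem and boundary genes KNAT1 and CUC3 fell by 1.33 and 0.47. CUC3 had also fallen at 1 h, with a difference of -0.54 (adjusted p = 0.0269). Its means at 4 h, 5.83 in mock and 5.36 in DEX, lay near the lower end of the scale. KNAT1 was higher in mock at 4 h than at 1 h (0.72). STM (-0.40), WUS (-0.06) and CLV3 (0.27) did not pass at 4 h, with WUS lower and CLV3 higher in DEX without overlap. The other leaf polarity markers, at -0.28 (KAN2) to -0.05 (YAB1), did not pass either. None of the 5 root markers passed. The part of these shifts in the results above was not tested.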

How the data were processed

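RNA of leaf 3 was hybridized to 12 ATH1 arrays, 4 groups of 3. The deposited values are log2 levels made by the authors with RMA, per the submitters' processing notes. RMA subtracts background, brings the arrays to a common distribution and combines each set's probes into 1 value. Its software, version and probe set definition are not given in the sources used here. Of 21492 probe sets, 64 controls were left out and 21428 loci tested without a filter on level. Symbols of all 48 genes matched the reference (TAIR10.1, names only). Another 221 loci share all values with another locus, none of them among the 41 (0 members).

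Groups were compared in limma 3.58.1 (R 4.3.3), fitting the 4 group means to all 12 arrays, so that 1 spread per locus served every comparison (degrees of freedom: 8 residual, 5.85 prior). Tests were two-sided, p-values were adjusted over all 21428 loci by the Benjamini-Hochberg method, and a locus was called at an adjusted p under 0.05. Pairs of gene copies (9 of 14 measured) were compared by an exact permutation test of their within-array difference. The members and the further lists (79 genes, 74 measured) were chosen with earlier results of these data known. Values per array are given for members called with DEX, the member of each complex with the smallest p at 4 h, and both copies of a pair with 1 called, and further members called between the times or without overlap were added after their values were seen. Further lists give members called on DEX, at most 4 per list and direction; GLK1 was added after its values were seen.

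The groups share replicate numbers. The deviations of same-numbered arrays correlated between -0.10 and 0.19, not all above 0.1, so the numbers were not taken to pair the samples. The alternatives were a replicate block, renewed quantile normalization, centring, only the arrays of a comparison, a minimum mean level of 6, a variance trend with robust fitting, an adjusted p under 0.01, identical loci kept once, and leaving out each array. Arrays give no counts, so their number limits the precision. Figures were drawn with matplotlib 3.10.9.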

Additional observations from a re-analysis of the deposited data

Results flagged for a closer look

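The response to DEX differed between 4 h and 1 h in 4 of the genes named, by the test of the difference itself in limma. For LHCB2.3 the difference of the log2 responses was -1.13 (SE 0.17, adjusted p = 0.00318), and for GLK2 it was -0.66 (SE 0.14, adjusted p = 0.0344). For HY5 it was 1.1 (SE 0.17, adjusted p = 0.00351) and for HYH 1.1 (SE 0.18, adjusted p = 0.00749). The GLK2 difference did not pass in 12 of 19 alternatives, among them 10 of the 12 fits without 1 array (adjusted p up to 0.112, without mock 1 h replicate 1). The other 3 passed in all 19. Groups of 3 arrays are too small for a test of single outlying arrays.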

How the results depend on the processing

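Of the calls given above, 36 (25 of them for members) were recomputed under 19 or 20 alternatives each, in 716 combinations. Those of the tissue markers AS1, KNAT1 and CUC3, and of HY5, HYH, GLK2 and PIF1 at 4 h against 1 h within mock or DEX, were not recomputed. None of the 36 changed direction (0), and 593 combinations stayed past the threshold while 123 did not. With the replicate block, member counts were the same in all 5 comparisons (3 higher and 1 lower on DEX at 4 h), and of the genes named STN7 and PORB at 4 h and the GLK2 difference no longer passed. On DEX at 4 h, 2 members were lower instead of 1 with centred arrays and with a variance trend. There, 2 and 4 members were higher instead of 3, with 2 also under renewed quantile normalization and with only the arrays of the comparison, and 1 at an adjusted p under 0.01. Of all loci, 1146 passed as higher and 547 as lower in the main fit. In either direction, 2169 loci passed with centring and 1778 with a variance trend. It was 2079 with renewed normalization, 994 with only the arrays of the comparison and 1008 at an adjusted p under 0.01. For mock between the times, 7 lower members became 4 with only the arrays of the comparison, 12 with a variance trend and 4 at an adjusted p under 0.01. Of all loci, 1209 passed as lower and 781 as higher in the main fit. In either direction, 1086, 2114 and 748 loci passed under those settings in turn. For DEX between the times, 11 lower members became 17 with centred arrays, 18 with a variance trend and 6 at an adjusted p under 0.01, and 1 higher member became 2 with a variance trend. Of all loci, 1924 passed as lower and 2236 as higher in the main fit. In either direction, 5376 passed with centring, 4317 with a variance trend and 2116 at an adjusted p under 0.01. Centring moved the median of all loci for DEX at 4 h from 0.02 to -0.09. Without 1 array, members called on DEX at 4 h ranged from 1 to 3 higher and from 1 to 2 lower, those whose difference of responses passed from 0 to 1 higher, those lower in mock from 4 to 7, and those lower on DEX from 6 to 11. Loci passing in either direction ranged from 1244 to 2022 on DEX at 4 h and from 170 to 412 for the difference of responses. Between the times they ranged from 945 to 2439 in mock and from 2647 to 5760 on DEX. LHCB2.3 and ELIP1 on DEX at 4 h passed in all 20 alternatives, at -1.54 to -1.31 and 1.33 to 1.91, and LHCB4.3 and ELIP2 were lost in 8 and 3. Where a call was lost without an array, the smaller number of arrays is part of the alternative, and no other cause was tested. Signals near 14 limit what the 22 brightest members can show.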
